A study of Mus musculus with 4 samples.

Results

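DNA methylation was compared between mouse embryonic fibroblasts in which reprogramming factors had been switched on without cell division and fibroblasts left uninduced, at CpG sites read deeply in both. The members were autosomal CpGs covered by at least 50 reads in both libraries, and clusters of at least 3 such CpGs with gaps of at most 100 bp. They came to 567636 of the 1575658 autosomal CpGs listed for both libraries, and the whole series lists 2057290 CpGs. Of the member CpGs, 397786 lay in 65687 clusters. The cells were secondary, inducible fibroblasts of a 129/SvJ x C57/B6 hybrid, which carry the factors under control of doxycycline. The control library came from uninduced cells and the induced (0-division) library from cells held in doxycycline for 96 hours that went through an average of 0 divisions. Both groups were given the same description of media: growth medium with 10% serum, and then either doxycycline medium with 15% serum or starvation medium with 0.5% serum. The labels do not say which cells were starved, so induction, medium and growth arrest cannot be told apart here. There was 1 library a side and no replicate, so every p-value below compares these 2 libraries by their reads and not the conditions.

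Methylation at the cytosine of a CpG is copied to the new DNA strand after replication by maintenance enzymes, set on unmarked DNA by de novo enzymes, and lost either passively, when copying fails over divisions, or actively, by oxidation and repair. CpG-dense promoters are unmethylated in most cells, most other CpGs are methylated, and imprinted control regions and some enhancers lie between. In cells that did not divide, dilution by replication cannot act, which makes a cohort of 0 divisions a way to look for changes that need no replication. The labels give no number of divisions for the control cells, so replication in control cannot be told apart from the other differences here. Reduced representation bisulfite sequencing cuts DNA with MspI at CCGG, keeps short fragments, here of 40 to 220 bp, and turns unmethylated cytosines into uracil, so that the share of reads that keep a C gives the methylation level.

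The libraries listed 1754344 CpGs in control and 1807769 in the induced library, with 84606824 and 86782772 calls summed over CpGs. Member CpGs had a median of 86 reads in control and 89 in the induced library. The median cluster held 4 CpGs over 77 bp, with 413 calls in control and 446 in the induced library. Calls are reads summed over the CpGs of a cluster, so a read that spans several CpGs counts at each, and intervals and p-values from such sums are too narrow. CpGs just inside the coverage rule, with 50 to 54 reads in the shallower library, averaged 42.9% in control and 43.1% in the induced library. Those just outside, with 45 to 49 reads, averaged 41.7% and 41.9%.

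No genome of the build of the positions (mm9) was at hand, so genes were named only where the spacing of listed CpGs matched a promoter sequence of RefSeq (GRCm38.p6, 250 bases before to 50 after a gene's start). A unique match was found for 9349 of 32851 sequences, 99.8% of them on the chromosome that RefSeq gives. Of the genes matched, 6094 had at least 3 member CpGs in the window and were compared. The 250 bases before the start of 6 of them are printed here, 5′ to 3′ on the strand of the gene, because they show the forms that differences between the libraries took. Igf2r and Cyp2r1 were lower in the induced library, Hoxd10 and Eva1b were higher, Gfm2 was lower in summed calls but not in the mean over its CpGs, and Armc9 was unmethylated in control and carried a short stretch of methylated calls in the induced library. Capitals mark the CpGs that were tested in both libraries. A lone capital C at the end belongs to a CpG that is cut by the start of the gene.
Igf2r: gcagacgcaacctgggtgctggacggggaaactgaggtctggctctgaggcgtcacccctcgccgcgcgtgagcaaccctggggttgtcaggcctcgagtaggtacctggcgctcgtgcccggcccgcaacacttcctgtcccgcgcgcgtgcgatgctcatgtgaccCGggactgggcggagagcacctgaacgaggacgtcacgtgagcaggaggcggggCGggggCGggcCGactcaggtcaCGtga
Cyp2r1: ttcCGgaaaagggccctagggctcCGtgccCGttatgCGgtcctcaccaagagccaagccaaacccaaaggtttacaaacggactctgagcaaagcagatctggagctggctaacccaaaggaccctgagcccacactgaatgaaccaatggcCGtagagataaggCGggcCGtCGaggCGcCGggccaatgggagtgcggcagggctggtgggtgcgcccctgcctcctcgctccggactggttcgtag
Hoxd10: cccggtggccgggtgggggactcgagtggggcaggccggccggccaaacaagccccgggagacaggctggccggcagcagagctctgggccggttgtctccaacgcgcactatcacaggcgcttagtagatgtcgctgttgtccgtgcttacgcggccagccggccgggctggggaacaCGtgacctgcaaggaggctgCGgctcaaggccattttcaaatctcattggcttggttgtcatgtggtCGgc
Eva1b: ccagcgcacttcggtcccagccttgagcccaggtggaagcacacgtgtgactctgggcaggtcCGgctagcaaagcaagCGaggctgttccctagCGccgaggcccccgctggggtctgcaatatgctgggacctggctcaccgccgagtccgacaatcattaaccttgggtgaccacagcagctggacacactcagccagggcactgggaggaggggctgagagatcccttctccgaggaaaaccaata
Gfm2: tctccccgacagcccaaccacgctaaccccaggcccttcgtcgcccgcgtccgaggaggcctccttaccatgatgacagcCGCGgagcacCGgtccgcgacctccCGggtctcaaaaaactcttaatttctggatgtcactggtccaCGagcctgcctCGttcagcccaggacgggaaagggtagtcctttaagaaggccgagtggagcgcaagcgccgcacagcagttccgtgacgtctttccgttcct
Armc9: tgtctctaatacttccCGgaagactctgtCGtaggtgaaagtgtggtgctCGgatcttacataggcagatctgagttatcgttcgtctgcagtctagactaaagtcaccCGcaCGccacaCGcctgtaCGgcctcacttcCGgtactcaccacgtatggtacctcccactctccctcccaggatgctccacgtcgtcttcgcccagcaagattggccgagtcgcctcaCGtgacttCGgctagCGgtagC
The MspI site CCGG, searched in the same 250 bases (it reads the same on both strands), was present in 47.1% of all 32851 promoter sequences and in 99.3% of the 6094 compared.

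Methylation levels of the clusters were nearly the same in both libraries. The mean over 65687 clusters was 47.6% in control and 47.6% in the induced library, a difference of 0.051 points. Levels correlated over these clusters with r = 0.998, a description of points that share their 2 libraries and span the whole range of levels. Within classes r was 0.67 in unmethylated, 0.773 in low, 0.964 in partly methylated and 0.822 in methylated clusters, as these are defined in the next paragraph. The median absolute difference was 1.15 points, 91.9% of clusters differed by under 5 points, and 605 clusters (0.921%) differed by 10 points or more. Only 19 of the 65687 clusters differed by 20 points or more.

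The sign of the mean difference depended on the level of the cluster. Unmethylated clusters, those with a mean of both libraries under 5%, numbered 24150 and went from 0.968% in control to 1.41% in the induced library, 0.440 points higher. Their counting error (95% half-interval) was 0.0084 points and the SD over clusters 0.919 points. The 3737 clusters of low level, from 5% to under 20%, were 0.665 points higher on average. The 10845 partly methylated clusters, from 20% to under 80%, averaged 59.0% in control and 59.1% in the induced library, 0.130 points higher with an SD of 4.94 points. With classes set by the induced level alone this last mean turned to -0.183 points, and with a minimum of 20 reads to -0.0318 points, so it has no stable sign. The 26955 methylated clusters, at or over 80%, went from 89.9% to 89.5%, 0.413 points lower, with a counting error of 0.0269 points.

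**Figure D1:**
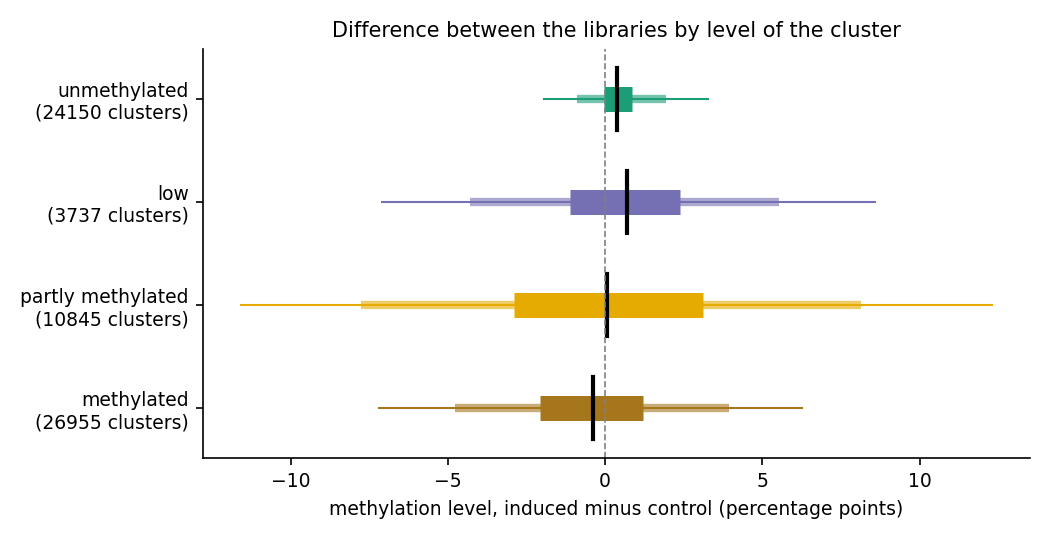
Difference in methylation level between the induced and the control library (x axis, percentage points) for clusters in 4 classes of level. Black ticks are medians, thick bars the 25th to 75th percentile, thinner bars the 5th to 95th and lines the 1st to 99th percentile; the median is 0.382 points in unmethylated and -0.394 points in methylated clusters, and the spread is widest in partly methylated clusters.

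The same order appeared on every autosome for the ends of the scale. Unmethylated clusters were higher in the induced library on all 19 autosomes, by 0.408 to 0.482 points, and methylated clusters were lower on all 19, by -0.544 to -0.228 points. Partly methylated clusters were higher on 13 of 19 autosomes, with means from -0.259 to 0.505 points. Autosomes of 1 library share its preparation and are not replicates.

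**Figure D2:**
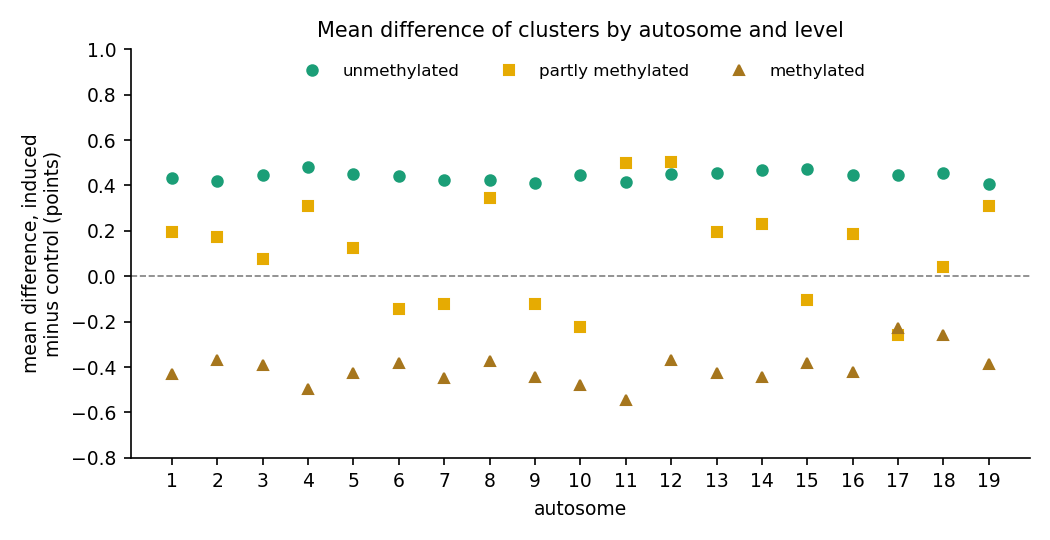
Mean difference of clusters (induced minus control, percentage points, y axis) on each autosome (x axis) for unmethylated, partly methylated and methylated clusters. Unmethylated clusters lie at 0.408 to 0.482 points and methylated clusters at -0.544 to -0.228 points, while partly methylated clusters scatter around 0.

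The higher level at unmethylated sites was small and broad, and its mean was largest in CpG-dense sequence, where CpG islands lie. Of the 24150 unmethylated clusters, 71.9% were higher and 26.1% lower in the induced library. Among the 16855 of them in CpG-dense sequence (at least 12 listed CpGs within 100 bp on each side) 75.8% were higher and 22.9% lower, and the mean went from 0.866% to 1.35% at a median of 779 calls in control. In the 679 CpG-poor unmethylated clusters (at most 4 listed CpGs) 53.3% were higher and 39.6% lower, and the mean went from 1.52% to 1.68% at a median of 300 calls in control. The part of depth in these shares was not tested. The median unmethylated cluster had 0.595% in control and 1.08% in the induced library. Clusters without a single methylated call numbered 2462 (10.2%) in control and 1163 (4.82%) in the induced library.

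**Figure D3:**
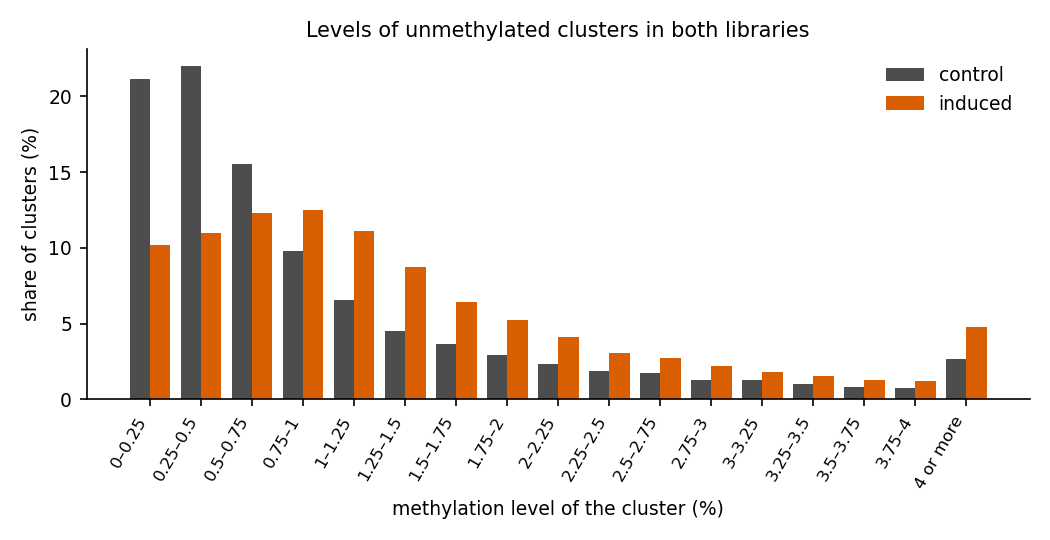
Share of the 24150 unmethylated clusters (y axis, %) by methylation level in steps of 0.25 points (x axis, %), in control and in the induced library. The share under 0.25% is 21.1% in control and 10.2% in the induced library, and the shares from 0.75% upward are larger in the induced library.

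Single CpGs showed the same shift. Of all 567636 member CpGs, 23.6% had no methylated read in control and 17.0% had none in the induced library. After each CpG was thinned to the lower of its 2 coverages the shares were 24.4% and 18.3%. Among the 24150 unmethylated clusters, 969 were higher and 41 lower at an adjusted p under 0.05 by Fisher's exact test. Over all 65687 clusters, 1358 were higher and 437 lower. The 969 had a median difference of 1.49 points, the largest being 8.79 points. CpG-dense were 882 of the 969 and 25 of the 41, against 16855 of the 24150. The CpG-dense ones had a median of 779 calls in control, against 628 over all unmethylated clusters. The part of depth in these counts was not tested. A level as close to 0 as that of unmethylated clusters also counts unmethylated cytosines that bisulfite failed to convert. Conversion of the libraries is not given in the sources used here, and its part in the rise was not tested.

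Clusters of many CpGs had a low mean level and differed little. The 2084 clusters of at least 20 CpGs averaged 5.95% in control and 6.46% in the induced library. None was called by the rule given below, against 0.464% of all clusters, but that rule allows no call at levels under 5%. The part of length was not tested. These long clusters differed by -6.29 to 5.99 points, and 86.7% were higher in the induced library. Their median depth was 2258.5 calls in control and 2291.5 in the induced library, the largest of any group described here.

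A cluster was called when Fisher's exact test on summed calls, two-sided and adjusted over all 65687 clusters by the Benjamini-Hochberg method, gave an adjusted p under 0.05 and the levels differed by at least 10 points. By this rule 169 clusters (0.257%) gained and 136 (0.207%) lost methylation in the induced library. With no minimum size, 1358 clusters (2.07%) were higher and 437 (0.665%) lower. Gains averaged 44.2% in control and 58.4% in the induced library, and losses 65.5% and 52.2%. Of the 305 called clusters 241 were partly methylated, which is 2.22% of that class, 18 low and 46 methylated. Levels that differ by 10 points have a mean of at least 5%, so no unmethylated cluster could be called. Of the called clusters 138 held only 3 CpGs, as did 24426 of all 65687 clusters, and the median was 4 CpGs in called and in all clusters. The longest called cluster held 13 CpGs. In 248 of the 305 every CpG differed in the direction of the call. Over all clusters, 14.6% had every CpG on one side. Called clusters were chosen by these same calls, and a read can span several CpGs, so their share is no separate support.

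These counts rested on the spread assumed. The median chi-square statistic over 54470 clusters was 1.98 times what sampling of independent calls gives, and after counts were divided by it 22 gains and 15 losses remained. With each CpG as its own stratum and equal weight per CpG, 120 of the gains and 97 of the losses were called again. Called again under both of these settings and at equal depth were 23 of the 305 clusters, 15 gains and 8 losses.

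The largest loss lay at chr6:3151553-3151575 (mm9), where 3 CpGs averaged 73.8% in control (95% Wilson interval 69.3 to 77.9) and 35.3% in the induced library (32.6 to 38.0). Its CpGs had 100, 96 and 97 methylated calls of 133, 134 and 130 in control, and 149, 140 and 138 of 407, 405 and 398 in the induced library. The 3 CpGs differed by -39.9 to -37.1 points, and no interval of 1 library reached that of the other. The cluster was read 3.05 times as deeply in the induced library. The nearest matched promoter, of LOC115490388, was 18.4 kb away.

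The next loss, at chr14:46703721-46703826, had 6 CpGs and went from 57.0% to 31.3%. Its first 5 CpGs stood at 50.8% to 60.7% in control and at 23.1% to 27.6% in the induced library. The sixth, 72 bp further on, was at 60.5% and 50.4%, a smaller difference of -10.1 points. All 6 CpGs were lower, and depth was alike, 412 and 515 calls. The third loss, at chr15:86263895-86263922, went from 66.0% to 42.3% on only 156 and 163 calls. Its 3 CpGs differed by -19.6, -36.3 and -15.4 points, and it was not called with counts divided by the overdispersion.

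Among the 10 largest losses, the one that reached the lowest level lay close to a gene. At chr1:72758274-72758308, 0.392 kb from the matched promoter window of Rpl37a, a protein of the large ribosomal subunit, 4 CpGs went from 27.2% (105 of 386 calls) to 4.76% (24 of 504). The CpGs differed by -25.2 to -19.7 points. The remaining losses among the 10 largest were at chr7:6682972-6683000 (70.1% to 48.4%), chr5:120720066-120720079 (84.5% to 64.1%), chr8:3754450-3754463 (45.5% to 25.1%), chr1:106890937-106890970 (35.2% to 15.4%), chr14:69873922-69873953 (33.8% to 14.3%) and chr12:30043260-30043281 (73.4% to 55.4%). All CpGs were lower in these clusters except at chr8:3754450-3754463, where 2 were lower and 2 higher and the mean over CpGs differed by only -5.20 points. With counts divided by the overdispersion, chr7:6682972-6683000, chr5:120720066-120720079, chr14:69873922-69873953 and chr12:30043260-30043281 were not called.

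The second largest gain was even over its CpGs. At chr13:56663632-56663664, 39.8 kb from the promoter of Fbxl21, an F-box protein of the circadian clock, 3 CpGs went from 21.7% (232 of 1069 calls) to 56.9% (223 of 392). They were higher by 33.9, 35.1 and 36.6 points, and the intervals, 19.3 to 24.3 and 51.9 to 61.7, lay far apart. Here control was the deeper library, the induced library having 0.367 times its calls. At chr2:52475268-52475298, 56.0 kb from the promoter of Cacnb4, a subunit of voltage-gated calcium channels, 6 CpGs went from 55.5% to 79.0% and each was higher by 14.9 to 31.6 points.

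The largest gain by summed calls did not show the same at its CpGs. At chr2:126105549-126105616 the pooled level went from 19.98% to 58.7%, a difference of 38.7 points, while the mean over its 6 CpGs went from 44.3% to 48.1%, a difference of 3.86 points. Its first 3 CpGs stood at 0.855% to 2.14% in control and at 1.75% to 5.26% in the induced library, and were read 234 times each in control but 56 or 57 times in the induced library. The other 3 stood at 75.4% to 98.5% and at 84.8% to 98.9%, on 64 or 65 and 91 or 92 reads. The pooled level weights each CpG by its reads, and the CpGs of low level made up a smaller share of the calls in the induced library. Gains 3, 4 and 5 had the same form: the mean over CpGs differed by 0.962 points at chr1:7732181-7732272, by 5.62 points at chr4:4270066-4270184 and by 1.68 points at chr1:5160650-5160717, against pooled differences of 27.8, 27.1 and 24.5 points. At chr1:7732181-7732272, for example, 2 CpGs at 0.980% and 2.36% in control were read 510 and 509 times there but 112 times in the induced library. Of the 305 called clusters, 56 differed by under 10 points with equal weight per CpG, and 1 had the other sign.

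**Figure D4:**
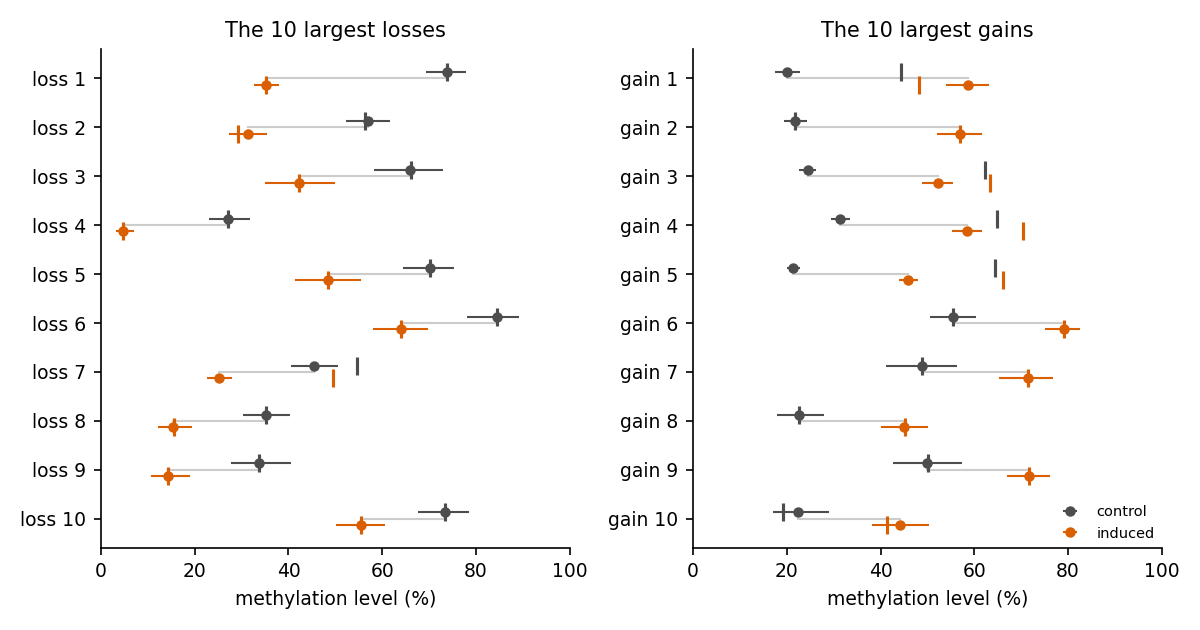
Methylation level (x axis, %) of the 10 clusters with the largest called loss (left) and gain (right) in control and in the induced library. Points are pooled levels with 95% Wilson intervals, which cover counting error only, and vertical ticks the mean over CpGs; in gains 1, 3, 4 and 5 and in loss 7 the ticks of both libraries lie close together although the points do not.

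The remaining gains among the 10 largest held 3 CpGs each, all higher in the induced library. They lay at chr17:47660190-47660222 (48.8% to 71.4%), chr13:72096352-72096359 (22.5% to 45.1%), chr12:34652445-34652465 (50% to 71.7%) and chr5:92821975-92821996 (22.4% to 44.1%). Of these gains, only chr13:72096352-72096359 was called with counts divided by the overdispersion. The called clusters with the most CpGs and the most calls were also of the unequal kind. The gain with the most CpGs, 12 at chr11:5906455-5906620 between the promoters of Ykt6 and Camk2b, went from 44.8% to 55.1% pooled but by 4.22 points as a mean over CpGs. The loss with the most CpGs, 13 at chr5:115199284-115199530, went from 89.7% to 77.5% pooled but by -2.08 points per CpG: its last CpG, at 16.4% and 9.35%, was read 73 times in control and 278 times in the induced library. The loss with the most calls, 7047 and 3255 at chr2:7337072-7337127, differed by -13.1 points pooled and by -2.11 points per CpG.

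Some of the 23 clusters called under all of these settings lay near matched promoters, and those described here were chosen after their values were seen. At chr2:147869621-147869732, 1.90 kb from the promoter window of Foxa2, a pioneer transcription factor of endoderm, 7 CpGs went from 23.5% to 40.8%, all higher. At chr6:113257462-113257581, 0.283 kb from the window of Brpf1, a scaffold of histone acetyltransferase complexes, 6 CpGs went from 1.47% to 11.5%. At chr2:155944567-155944601, 6.62 kb from the window of Cpne1, 6 CpGs went from 73.0% to 88.0%, and 4 of them were higher. At chr9:119327204-119327314, 15.9 kb from the window of Acvr2b, an activin receptor, 8 CpGs went from 53.7% to 40.6%, and 7 of them were lower. Farther from matched promoters, the 9 CpGs at chr6:90855593-90855624 went from 52.2% to 71.6% and the 5 at chr8:63703009-63703040 from 2.01% to 20.1%, all higher. Of the 23, 14 were partly methylated, 4 low and 5 methylated. Since only part of all genes could be matched, a nearer gene without a match may exist.

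Called clusters seldom lay on promoters. A matched promoter window overlapped 5 of 169 gains (2.96%) and 4 of 136 losses (2.94%), against 6997 of all 65687 clusters (10.7%). Most promoters were unmethylated, a class in which the minimum of 10 points allows no call, so these shares are low in part by construction. Of the 73 gains with another cluster within 1000 bp, 14 (19.2%) had a neighbour that was at least 5 points higher and 2 one at least 5 points lower. Of the 57 such losses, 8 (14.0%) had a neighbour at least 5 points lower and 5 (8.77%) one at least 5 points higher. Among 2987 partly methylated clusters that were not called, 10.1% of neighbours were at least 5 points higher and 7.83% at least 5 points lower.

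Single CpGs were called when Fisher's exact test, adjusted over all 567636, gave an adjusted p under 0.05 and the levels differed by at least 20 points. There were 41 gains (0.00722%) and 71 losses (0.0125%). With no minimum size 145 (0.0255%) were higher and 96 (0.0169%) lower. Of the 112 called CpGs 92 were partly methylated, a class that held 98115 of all 567636 members. The minimum of 20 points allows no call at the 226948 unmethylated CpGs. Of the called CpGs 83 lay in clusters, 35 of them in a called cluster, and 29 lay outside, while 397786 of all members lay in clusters.

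The largest losses of single CpGs exceeded those of any cluster. The CpG at chr3:117835581 went from 72.9% (43 of 59 reads) to 9.52% (12 of 126). A CpG 13 bp before it, at chr3:117835568, went from 74.0% to 17.4%, and the pair lay outside clusters, so reads that cover both may give both values. At chr13:85635297 the level went from 92.0% (46 of 50) to 30.2% (19 of 63), at chr12:100883822 from 85.5% to 36.9% and at chr15:65781288 from 92.9% to 45.8%. The CpG at chr12:100883822 lay in a cluster that was not called.

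The largest gain was at chr7:139760235, from 28.7% (82 of 286 reads) to 68.5% (87 of 127). It was followed by chr15:71142413 (21.5% to 60.3%) and chr19:45823928 (17.9% to 55.4%). Gains 4 and 5, chr2:155944599 (33.3% to 70.5%) and chr2:155944574 (50% to 86.8%), lay in the gained cluster beside Cpne1.

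Promoters that could be named were almost all unmethylated. Of the 6094 compared, 5691 were under 5%, and these went from 0.710% in control to 1.20% in the induced library, with 75.8% higher. With Fisher's exact test and no minimum size, 352 promoters (5.78%) were higher and 18 (0.295%) lower at an adjusted p under 0.05. With the minimum of 10 points 4 (0.0656%) gained and 6 (0.0985%) lost. At equal depth the counts were 1 and 3. Promoter calls were not repeated with divided counts or with each CpG as its own stratum. No matched promoter window overlapped any of the 23 clusters called under all of the stricter settings. Windows of 270 of the compared genes coincide with that of another gene, as at divergent pairs.

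The lost promoters included that of an imprinted gene. Igf2r, the receptor that clears IGF2 and carries mannose 6-phosphate enzymes, is expressed from the maternal allele, and its promoter is methylated on the silent one. Its 7 CpGs between positions 12962565 and 12962652 of chromosome 17 (mm9) went from 36.9% (268 of 727 calls) to 26.6% (228 of 857), with intervals of 33.4 to 40.4 and 23.8 to 29.7 (adjusted p 0.00206 by Fisher's exact test). All 7, of which 5 are the capitals in the sequence above and 2 lie at or beyond the start, were lower by 5.54 to 14.9 points. Cyp2r1, which hydroxylates vitamin D at carbon 25, went from 47.2% to 37.0% over 10 CpGs, all lower by 3.05 to 21.0 points, in both groups of capitals in its sequence. D130017N08Rik went from 41.2% to 29.6% with all 7 CpGs lower, Arhgef10l from 38.0% to 25.8% with all 5 lower, and Sycp2l, a protein of the synaptonemal complex, from 40.6% to 30.2% with 4 of 5 lower.

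Gfm2, a mitochondrial factor of ribosome recycling, was called lower, 26.3% to 15.2%, but its mean over 7 CpGs differed by -0.415 points. Its CpG 145 bases before the start went from 29.4% to 14.4%, those 103 and 92 bases before it went from 72.1% to 80.4% and from 50.9% to 55.8%, and the others stayed under 2% in both. In the sequence above these are neighbouring capitals that step from almost none to over 70% within 70 bases.

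Among the gained promoters, Hoxd10, a homeobox factor of the posterior body axis, went from 8.44% (20 of 237 calls) to 19.5% (43 of 220), and its 4 CpGs were higher by 5.58 to 19.7 points. Eva1b went from 23.2% to 34.8% with all 3 CpGs higher. Prom1, which encodes the membrane protein CD133, went from 20.2% to 30.3% with 3 of 4 higher, and Gm5563 from 16.9% to 27.4% with all 5 higher. The promoter of Ddx4, the germline RNA helicase Vasa, went from 67.9% to 77.8%, just under the 10 points required, at an adjusted p of 0.00695 by Fisher's exact test. Over the 10 called promoters, 7 had every CpG on the side of the call and 4 differed by under 10 points with equal weight per CpG.

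**Figure D5:**
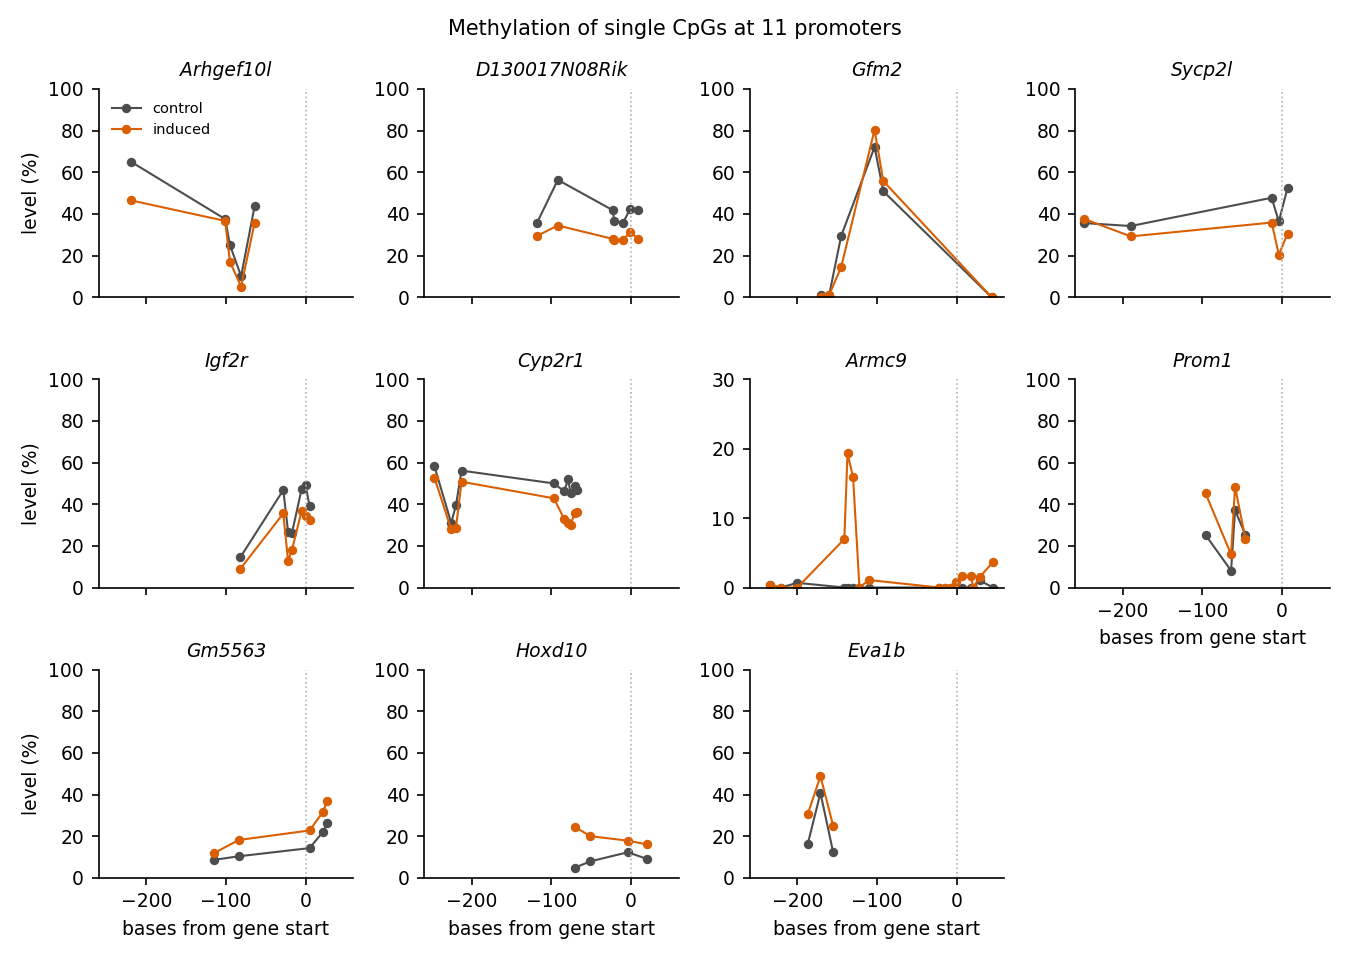
Methylation level (y axis, %) of each tested CpG by its distance in bases from the gene start (x axis) at the 10 called promoters and at Armc9, in control and in the induced library. The y axis ends at 100% except for Armc9, where it ends at 30%; the induced points lie below control at all CpGs of Igf2r and Cyp2r1 and cross it in Gfm2.

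Unmethylated promoters that rose did so by a few points. Of the 5691 unmethylated promoters 331 were higher at an adjusted p under 0.05 by Fisher's exact test, as were 352 (5.78%) of all 6094. The 331 had a median difference of 1.70 points and a range of 0.610 to 6.58 points. Of the 331, 58 had no methylated call in control. Another 10 unmethylated promoters were lower, with a median difference of -2.46 points and the largest -6.25 points. The smallest p belonged to Armc9, a protein of the primary cilium, with 3 of 2250 calls methylated in control and 51 of 2030 in the induced library. Most of these calls sat in one place: at 141, 137 and 130 bases before the start, 6 of 86, 17 of 88 and 14 of 88 reads were methylated, against 0 of 96, 97 and 94 in control. At the other 14 CpGs the induced library stayed under 4%. Slc25a15, the ornithine carrier of mitochondria, had 5 of 920 and 52 of 851 calls methylated, and Gmcl1 6 of 2401 and 43 of 2102.

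No methylated promoter passed the test, and several belong to germline genes, which somatic cells keep silent. The 33 at or over 80% averaged 91.0% in control and 90.3% in the induced library. Among the 26955 methylated clusters only 71 were higher and 179 lower at an adjusted p under 0.05. At such shares, none among 33 says nothing of these promoters. The germline genes described here were chosen after their values were seen. Asz1, Mael and Fkbp6, of the piRNA pathway, were at 91.8% and 92.8%, 82.9% and 80.1%, and 96.7% and 97.2%. Hormad1, a meiotic chromosome protein, was at 89.2% and 91.6%, Tex101 at 95.9% and 94.4%, and Slc25a31 at 91.4% and 89.6%.

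Other imprinted genes with a compared promoter did not pass both criteria, and were likewise chosen after their values were seen. Mcts2 went from 54.4% to 51.7%, Plagl1 from 52.0% to 46.6% and Mkrn3 from 22.6% to 17.9%, with adjusted p-values of 0.556, 0.227 and 0.374 by Fisher's exact test. The window matched to Gnas went from 3 methylated calls of 700 to 18 of 609, higher at an adjusted p of 0.0104 by Fisher's exact test. Gnas missed only the minimum difference, which no unmethylated promoter can reach. Grb10 (1.57% and 1.63%), Zdbf2 (3.06% and 3.18%), Copg2 (2.88% and 3.61%) and Zrsr1 (9.55% and 10.6%) were slightly higher, with overlapping intervals.

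Promoters of genes of pluripotency, fibroblasts and the cell cycle were mostly out of reach. None of the 6 compared was called, which at the shares of 0.0656% and 0.0985% over all promoters says nothing of these genes. Of 15 pluripotency genes 2 could be compared. Sox2, a reprogramming factor, had 9 of 663 calls methylated in control and 15 of 663 in the induced library. Fgf4, a growth factor of the inner cell mass, had 4 of 676 and 16 of 597, higher at an adjusted p of 0.0490 by Fisher's exact test. Of 15 fibroblast genes, Twist2 had 0 of 484 and 2 of 423 calls methylated, and Vim, the intermediate filament vimentin, 2 of 459 and 8 of 510. Of 9 cell cycle and senescence genes, Cdkn2a, which encodes 2 cell cycle inhibitors, had 18 of 1192 and 12 of 1617, and E2f1, a driver of S phase, 13 of 1124 and 7 of 1636. All 6 promoters were under 3% in both libraries.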

How the data were processed

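DNA methylation was read by reduced representation bisulfite sequencing in 4 libraries, 2 of which were used. The authors deposited, per CpG, a position and a pair of whole-number read counts, with no normalization; per the submitters' processing notes positions are on mm9. For the aligner, the caller, conversion, duplicate handling and the base that positions count from, the entry is: not given in the sources used here. The first count was taken as methylated: CpG-dense clusters then average 8.09% in control. The deposited values carry no other unit. Levels are methylated calls over all calls in percent.

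Tests were two-sided Fisher exact tests (numba 0.67.0, Python 3.11.15, with scipy 1.17.1 and pandas 2.3.3) with Benjamini-Hochberg adjustment over all features. They were tried on simulated data with independent calls and, for clusters, a common level of all CpGs. Reads that span several CpGs and clusters of unequal CpG levels were not simulated. Intervals are 95% Wilson intervals and cover counting error only. Coverage of a CpG sets precision: the median standard error of a cluster difference from counting was 1.77 points. Named are the 10 largest called gains and losses, the called clusters with the most CpGs and most reads, and 5 single CpGs each way. Members and lists were chosen with earlier results of these data known.

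Gene names had been planned only with an mm9 annotation. Matching promoters by CpG spacing was added after the data were seen: at least 7 listed CpGs, all of them CpGs of the sequence, seeded by 4 neighbouring CpGs. Of 9333 unique matches on the right chromosome, 99.2% were shifted from RefSeq's start by exactly as much as the matches around them, and 18 that differed by over 1000 bases were left out. No coordinate was converted. The X chromosome and the libraries of dividing cells were left out by the rule.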

Additional observations from a re-analysis of the deposited data

Results flagged for a closer look

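The X chromosome lay outside the comparison and held a difference larger than the autosomes' in CpG-dense sequence. Its 215 CpG-dense clusters between 5% and 80% averaged 12.6% in control and 15.4% in the induced library, 2.77 points higher. Of these, 154 (71.6%) were higher. The same kind of autosomal cluster, 2139 in number, was 0.556 points higher on average, and 1267 (59.2%) were higher. Over all 2462 X-linked clusters the difference was 0.196 points. Whether the rise on X differs from that on autosomes was not tested, and the sex of the cells is not given in the labels.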

How the results depend on the processing

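No paired analysis was possible because each group had 1 library, and for the same reason no replicate could be left out. Counts of gained and lost clusters were 308 and 327 with a minimum of 20 reads, 37 and 40 with 100, 110 and 89 at equal depth, 32 and 26 with at least 6 CpGs, 22 and 15 with counts divided by the overdispersion, 362 and 355 at 5 points, and 12 and 7 at 20 points. Gained and lost CpGs were 22 and 46 at equal depth and 17 and 40 with divided counts, and lost CpGs were 42 with 100 reads. Promoters, added after the data were seen, gained in 12 cases with 20 reads, 1 with 100, 1 at equal depth and 2 with at least 10 matched CpGs, and lost in 2 with 100 reads and 3 at equal depth. The cause of these changes was not tested.

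Unmethylated clusters were higher in every setting, with a mean difference of 0.501 points at 20 reads, 0.313 at 100, 0.455 at equal depth, 0.472 with gaps of 50 bp, 0.487 with at least 6 CpGs, 0.478 with equal weight per CpG, 0.492 with classes by control and 0.380 by the induced library. Methylated clusters were lower in every setting, by -0.502 points at 20 reads, -0.312 at 100, -0.467 and -0.375 with gaps of 50 and 200 bp, -0.502 with at least 6 CpGs, -0.590 with classes by control and -0.243 by the induced library. Partly methylated clusters changed sign at 20 reads (-0.0318) and with classes by the induced library (-0.183), and had 0.0335 points with gaps of 50 bp, 0.0584 with equal weight and 0.468 with classes by control. Of the 23 named clusters, 15 kept their call with equal weight per CpG, 15 at equal depth and 15 with divided counts (for single clusters added after the data were seen), and none changed direction. Those that lost it with divided counts were not the ones that lost it with equal weight or at equal depth. Of the named losses, those at chr6:3151553-3151575, chr14:46703721-46703826, chr1:72758274-72758308 and chr1:106890937-106890970 kept their call in all of these settings. Of the named gains, only those at chr13:56663632-56663664, chr2:52475268-52475298 and chr13:72096352-72096359 did. Depth limits small differences: the difference of a partly methylated cluster had a median standard error from counting of 3.37 points.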
